A study of Bos taurus with 12 samples.

Results

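The m6A map of proliferating bovine myoblasts, the GM list, held 19739 peaks, out of 40529 entries in the peak lists of the whole series. Every entry of the list that compares immunoprecipitated RNA (IP) with total fragmented RNA (input) in growth medium was taken as a member, with no selection on its values. The peaks named 10601 genes, of which 10501 are among the 18436 genes of the deposited expression table. The cells were primary myoblasts from the longissimus dorsi muscle of a newborn Qinchuan animal, kept in medium with 20% foetal bovine serum and collected at 80% confluence (GM). No gene was altered and no agent was added. Of the 12 libraries of the series, 6 belong to GM: 3 inputs and the 3 IPs made with an m6A antibody from poly(A) RNA broken to fragments of about 100 nt. The deposited GM list sets IP against input once for the condition, with no value per library, so its peaks carry no spread between cultures and the comparisons between peaks below were not tested. Peaks called library by library were not used here. The sources do not say whether the 3 cultures came from more than 1 animal, so the SDs of the inputs measure a spread between libraries that may be technical.

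m6A is a methyl group on the N6 position of adenosine, the commonest internal mark of mRNA. It is written by the METTL3 and METTL14 heterodimer with its adaptors, removed by FTO and ALKBH5, and read by YTH domain proteins and others that act on splicing, translation and decay. The mark is known to lie mostly near stop codons, in 3′UTRs and in long internal exons. In muscle cells it is known from work on the mRNA of MYOD1, the transcription factor that commits cells to the myogenic lineage.

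The study followed 4 genes by m6A-IP-qPCR, and the primers are shown because they are its own probes of methylated RNA in these cells. They were MYOZ2, which encodes a Z-disc protein, TWIST1, a bHLH repressor of myogenesis, KLF5, a zinc finger activator, and MYOD1. The primers are written 5′ to 3′ with no base marked, F the forward and R the reverse. Their place relative to the peaks was not determined, since no genome sequence was used here.
MYOZ2 F: tcaccggaacgaattccact
MYOZ2 R: gcccatccttcagagagtcg
TWIST1 F: ctaccaggtcctacagagcga
TWIST1 R: ctccatcctccagaccgagaa
KLF5 F: gctcctgaatacaccggatct
KLF5 R: gaattgcttcatggcggtcg
MYOD1 F: gcccctcgggctgtatttat
MYOD1 R: ttcgaacacctgagcgagc

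In the GM list, 3 of these 4 genes carried a peak, near the share over all expressed genes (70.9%, defined below). MYOD1 had 1 peak, annotated to its 3′UTR at chr15:34794122-34794982 (assembly ARS-UCD1.2, as all positions here), with a fold enrichment (IP over input, as deposited) of 3.12 over 861 nt. TWIST1 had 1 peak annotated to its 5′UTR at chr4:27818299-27819874, with a fold enrichment of 3.97 over 1049 nt of exon. KLF5 had 2 peaks, of 4.78 in its exons and 2.69 in its 5′UTR. No entry named MYOZ2, although its RNA was present in every input at 34.0, 45.2 and 32.5 FPKM (fragments per kilobase of exon and per unit of depth, a level per length). The paper itself describes m6A peaks of MYOZ2 near the start codon in each replicate of GM and DM. Absence from this list therefore does not show that MYOZ2 was unmethylated.

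The 3 inputs were close to each other, with Pearson r of log2(FPKM + 1) between 0.995 and 0.997 over genes, which are not independent replicates. Between 12269 and 12303 genes reached 0.5 FPKM in each, and the columns summed to 415740 to 434458. Some genes of small, abundant proteins stood higher in input 3, such as RPLP1 at 4007 FPKM against 3020 and 2916. Of the myoblast markers, 9 of 10 reached a mean of 0.5 FPKM, with DES at 453 ± 9.86 (SD, n = 3), MYOG at 197 ± 8.95 and MYOD1 at 61.6 ± 3.94. Their summed level was 858 to 907 FPKM in the 3 inputs. PAX7, the satellite cell factor, was at only 1.08 ± 0.0972 and PAX3 was at 0.431 ± 0.0645. Of the fibroblast markers, 7 of 8 reached 0.5 FPKM, with a summed level of 10284 to 10431. Most of this sum was COL1A1, at 6791 ± 182, and COL3A1, at 2397 ± 43.0. DCN was at 531 ± 37.4, LUM at 508 ± 29.2 and THY1 at 76.1 ± 6.94. PDGFRA was at 36.9 ± 2.05 and TCF21 at 2.15 ± 0.123, while PI16 was below 0.5 FPKM. These sums do not measure the shares of the cell types. Of other cell types, the defining markers were near 0 for endothelial cells, where none of 4 reached 0.5 FPKM. Adipocyte markers summed to at most 1.36 FPKM and immune markers to at most 1.84. Among Schwann cell markers S100B was at 10.4 ± 0.303, and of smooth muscle markers ACTA2 was at 2241 ± 224 and MYH11 at 0.282 ± 0.0346. The part of fibroblast RNA in the peaks was not tested.

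Over all genes of the expression data, 57.0% had at least 1 peak, and among the 12288 genes with a mean input level of at least 0.5 FPKM 8712 did, or 70.9%. With only peaks of a false discovery rate under 0.05 the latter share was 69.7%, and with a fold enrichment of at least 2 it was 62.8%, or 51.4% over all genes. These shares are the background for every gene list below. The share with a peak was not even along the range of RNA levels. It was 29.1% of 6148 genes under 0.5 FPKM (Wilson 95% interval 28.0 to 30.2%, for counting error only) in the full list, but 12.02% with a false discovery rate under 0.001 and 12.9% without the stepped values described below, and 64.1% from 0.5 to 2 FPKM. In the full list the share was highest from 2 to 10 FPKM, at 74.8%, and close to that from 10 to 50 FPKM, at 72.3%. With a false discovery rate under 0.001 the order of these classes turned, with 69.8% and 70.2%. It was lower again at 64.8% from 50 to 200 FPKM and 56.7% at 200 FPKM or more (51.0 to 62.2%, n = 300). Without the cytosolic ribosomal protein genes 147 of 228 genes in this top class had a peak, or 64.5%. Of 942 genes at 0 in all 3 inputs, 55 were nevertheless named by a peak.

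**Figure D1:**
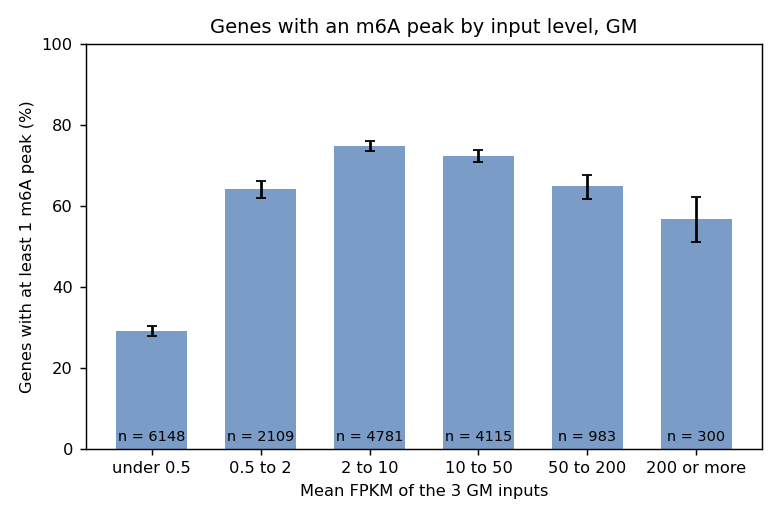
Bars give the percentage of genes with at least 1 m6A peak in GM (y axis) in classes of mean input FPKM (x axis), with Wilson 95% intervals as error bars and the number of genes in each bar. In this full list the share is highest at 74.8% from 2 to 10 FPKM, an order that turns against 10 to 50 FPKM with a false discovery rate under 0.001, and falls to 56.7% at 200 FPKM or more.

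The most abundant mRNAs of these cells were split between genes with weak peaks and genes with none. SPARC, a matrix glycoprotein, was the highest of all, at 9714, 9148 and 9452 FPKM in the 3 inputs, and its only peak had a fold enrichment of 1.55 over 149 nt, annotated to its 3′UTR. COL1A2, at 5746, 5770 and 5754 FPKM, likewise had 1 peak of 1.54 over 61 nt. COL1A1, which encodes the other chain of type I collagen, stood apart from both, with a peak of 6.1 over 688 nt at chr19:36473422-36474513 and an input level of 6634, 6750 and 6990 FPKM. Cytoskeletal genes had low values: ACTB had 1.72 at most, ACTA2 had 1.69 and MYL6 had 2.3. The elongation factor gene EEF1A1 had a peak of 2.48, LGALS1, a galectin, one of 1.62, and the ribosomal protein genes RPL4 and RPL14 had peaks of 2.42 and 2.8. Among these 10 genes COL1A1 therefore held the only value above 3.27, the median of all peaks.

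The 15 most abundant genes without any entry included 8 cytosolic ribosomal protein genes. They were RPLP1, VIM, TPT1, TMSB10, COL3A1, RPL37, RPLP0, ACTG1, RPS18, RPS15A, RPL9, RPS27, RPL23, PPIA and 1 gene known only as ENSBTAG00000054745. VIM, the intermediate filament gene of mesenchymal cells, was at 2729, 2667 and 2879 FPKM. COL3A1, the type III collagen gene, was at 2439, 2399.9 and 2353 FPKM. Absence from the list says that no enrichment was called there, at a depth that the list does not give, and a gene without an entry is not shown to be unmethylated.

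Fold enrichments ran from 1.06 to 205 with a median of 3.27 and quartiles of 2.11 and 5.49, and 1438 peaks, 7.29%, reached 10. A large part of the high values fell on a grid. When 2001 step sizes between 1 and 1.2 were scanned, the whole multiples of 1.0889 matched 3495 of the 19737 values under 100 to all 3 significant digits, or 17.7%, against a median of 224 matches over the step sizes scanned. Of the values that can be written with 3 digits, multiples take 0.918% under 10 and 9.18% from 10 to 100. The value of 6 steps, 6.53, occurred in 604 peaks, that of 7 steps, 7.62, in 422, and that of 8 steps, 8.71, in 308. Such multiples made up 0.0467% of peaks with a fold enrichment of 1 to 2, 6.87% from 2 to 5, 42.3% from 5 to 10, 66.9% from 10 to 20 and 80.9% from 20 to 100. They made up 62.2% of the peaks in genes under 0.5 FPKM and 4.15 to 19.1% in the higher classes. A ratio over an input count of 1 would take such values. The counts behind the peaks were not used here, so this was not tested. Among peaks at the multiples 68.2% had a false discovery rate under 0.05, against 95.03% of the others, and the median fold enrichment of the others was 2.85.

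**Figure D2:**
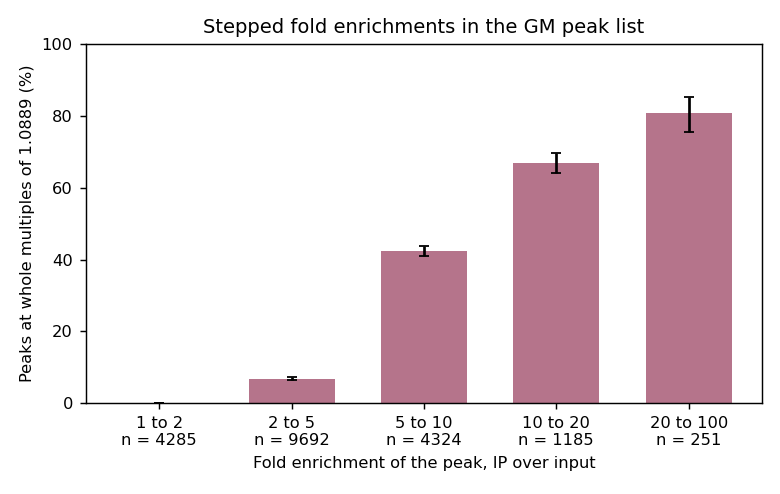
Bars give the percentage of GM peaks whose fold enrichment is a whole multiple of 1.0889 (y axis) in ranges of fold enrichment (x axis), with Wilson 95% intervals. The share climbs from 0.0467% at 1 to 2 to 80.9% at 20 to 100.

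The genes with the highest fold enrichment among those with a mean of at least 1 FPKM and a false discovery rate under 0.05 were led by MTHFS, which encodes an enzyme of folate metabolism, with 92.6 over 150 nt annotated to its 3′UTR at chr21:25950192-25950341. MTHFS was at 20.2, 20.6 and 21.3 FPKM in the inputs. ZNF784 followed with 78.4 and SPATS2L and TERF2, a telomere-binding protein gene, with 66.4 each. PRPF6, a splicing factor gene, had 65.3. FHDC1 and INHBE, an inhibin subunit gene, had 63.2 each, AEBP2 had 62.3 and NYAP1 had 58.8. The list went on with PDIA3 at 58.6, PPP1R37 at 56.6, DGKA, a diacylglycerol kinase gene, at 55.5 and RING1, a Polycomb gene, at 54.4. It ended with ABCF2 at 53.7 and TAP2, a peptide transporter gene, at 50.1. In 12 of these 15 genes the value was a whole multiple of 1.0889, MTHFS at 85 steps and ZNF784 at 72. The peak of ZNF784 also shared bases with ZNF524.

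The 3 of them off the multiples were AEBP2, PDIA3 and ABCF2. AEBP2, which encodes a cofactor of the Polycomb complex PRC2, was at 10.02, 10.9 and 8.98 FPKM, and its peak spanned 957 nt of exon. PDIA3 encodes a protein disulphide isomerase of the endoplasmic reticulum. It was abundant, at 690.4, 673 and 637 FPKM, and its 58.6-fold peak over 507 nt at chr21:55391392-55392458, annotated to the 3′UTR, stood beside 3 other peaks of only 1.1 to 1.31 in the same gene. The peak of ABCF2 was annotated to the 5′UTR. A ranking of peaks off the multiples was added after the values were seen, with the same limits of 1 FPKM and a false discovery rate of 0.05. In it LPCAT1, an enzyme of phospholipid remodelling, came next with 46.7. MARVELD1 followed with 40.6, GPD1 and CENPB, a centromere protein gene, with 36.5 each and PTPN12 with 34.2. CWC25, HIRA, a histone chaperone gene, DNAJC7, NUDT3, CCDC136, GADD45G and RLF closed this ranking between 32.1 and 27.6.

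By position, 8418 peaks, 42.6%, were annotated to the 3′UTR, 8147, 41.3%, to an exon outside the UTRs and 3174, 16.1%, to the 5′UTR. The annotation gives 1 class to each peak, also to one that runs over several exons. Exonic peaks were the weakest, with a median fold enrichment of 2.72, against 3.68 in the 5′UTR and 3.77 in the 3′UTR. They were also shorter, with a median of 270 nt of exon sequence against 418 and 390 nt. Of the exonic peaks, 59.7% lay in internal exons, where the median fold enrichment was 2.45. Another 595 lay in annotated transcripts with a single exon, where it was 3.74. The class also moved with RNA level: exonic peaks made up 53.6% of the peaks in genes under 0.5 FPKM and 22.8% at 200 FPKM or more, while the 3′UTR share went from 34.5% to 54.4%.

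The lower values of exonic peaks were seen in every FPKM class from 0.5 FPKM up. From 0.5 to 2 FPKM the medians were 2.78 in exons, 4.03 in the 5′UTR and 4.14 in the 3′UTR. From 10 to 50 FPKM they were 2.06, 3.26 and 3.27. At 200 FPKM or more they were 1.98, 3.05 and 2.76. Below 0.5 FPKM exons and 5′UTR shared the value of 6 steps, 6.53. Over all peaks off the multiples the medians were 2.43 in exons, 3.10 in the 5′UTR and 3.36 in the 3′UTR. The order also held inside genes. In 1729 genes with both kinds of peak, the best 3′UTR peak was higher than the best exonic peak in 1272, or 73.6%, by a median of 0.75 on the log2 scale. The best 5′UTR peak was above the best exonic peak in 540 of 872 genes, 61.9%, by a median log2 difference of 0.35, and the 3′UTR was above the 5′UTR in 751 of 1271 genes, 59.1%, by 0.26. MAP1A, which encodes a microtubule-associated protein, was a clear instance, with 18.4 in its 3′UTR and 5.23 and 2.08 in its exons at 31.3, 34.4 and 33.4 FPKM.

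**Figure D3:**
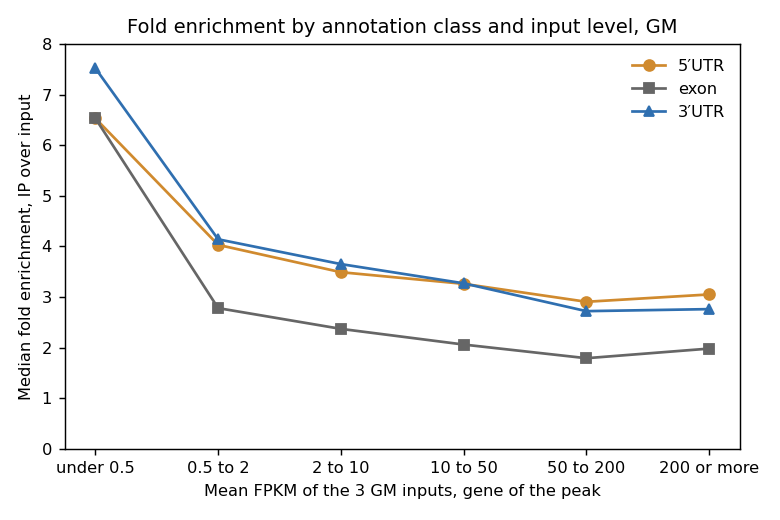
Lines join the median fold enrichment of GM peaks (y axis) annotated to the 5′UTR, to exons and to the 3′UTR in classes of the mean input FPKM of their gene (x axis). From 0.5 FPKM up the exonic medians lie between 1.79 and 2.78, below both UTR medians in each class.

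Peaks covered a median of 352 nt of exon sequence, with quartiles of 180 and 661 nt, and 55.4% of them were a single exon block. Longer peaks had higher fold enrichments. The median rose from 2.06 in 5703 peaks of up to 200 nt to 3.06 over 200 and up to 500 nt, 4.22 over 500 and up to 1000 nt and 5.14 in 2661 peaks over 1000 nt, and Spearman's rho over all 19739 peaks was 0.49, given as a description since peaks share libraries and genes. A block of over 1000 nt within 1 exon was found in 1536 peaks of 1425 genes, with a median fold enrichment of 5.46, against 2.55 in 12926 peaks whose longest block was up to 400 nt. The longest peak of all covered 8358 nt of VCAN, the versican core protein gene, in 3 blocks at chr7:83397696-83432120, with a fold enrichment of 4.73 and an input level of 83.4, 86.9 and 80.1 FPKM. MAP1A followed with a peak of 7873 nt inside its exon 5, at chr21:55266730-55274602. MKI67, the proliferation marker, had 7845 nt in 4 blocks at a fold enrichment of 4.00, beside a 3′UTR peak of 10.2, and was at 18.7, 18.3 and 16.5 FPKM. The next entry was different. CUX2, with 6758 nt at 6.53, was at a mean of 0.0121 FPKM and its log10 false discovery rate was -0.639, so that it missed 0.05. Its fold enrichment is a whole multiple of 1.0889.

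A single peak was found in 5476 genes, 52.1% of the genes of the table with a peak, while 2803 had 2, 1274 had 3, 510 had 4 and 438 had 5 or more. Genes with many peaks were wide and not abundant. The median gene width, introns included, was 15623 bases for 1 peak and 50842 for 5 or more, and the median input level was 6.75 and 3.13 FPKM. Spearman's rho of the number of peaks was 0.20 with gene width and -0.16 with input level over 8712 genes that share the same libraries. The highest fold enrichment of a gene had a rho of -0.22 with its input level, which was -0.14 without the multiples and -0.38 with no filter on FPKM.

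The 10 genes with the most peaks had 11 to 15 each. PCDHGC3, of the clustered protocadherins, had 15 peaks, and its strongest one also covered ENSBTAG00000055200. Its exonic peaks were annotated to transcripts of 3 and of 4 exons, and which variant of the cluster each peak belongs to was not determined. FAT4, an atypical cadherin, had 14 peaks, all in exons. Of these, 8 were annotated to exon 1 of 17 and the strongest, 7.28 over 1828 nt, lay there too. PKD1, which encodes polycystin, also had 14 exonic peaks, none above 2.98. MPRIP, a myosin phosphatase partner, had 13 and PLEC, the plectin gene, had 12. AHNAK, ALMS1, CMYA5, DIDO1 and XIRP2 had 11 each. The 11 peaks of AHNAK, a giant scaffold protein gene at 164, 185 and 168 FPKM, had fold enrichments of 1.73 to 3.94, and 7 of them were annotated to its exon 5. CMYA5 and XIRP2 encode proteins of striated muscle, with a highest value of 4.76 and 6.38.

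Of the m6A machinery itself, 10 of 12 writers had a peak, or 83.3% against 70.9% of all genes of at least 0.5 FPKM. The 95% interval of the writers, 55.2 to 95.3%, held that background. METTL3, the catalytic subunit, was at 10.1, 9.39 and 8.85 FPKM and had 1 peak of 2.18, a value of 2 steps, over 209 nt annotated to its 3′UTR. METTL14, its partner, had 1 peak of 3.32 in the 3′UTR. WTAP, the adaptor that holds the pair in nuclear speckles, had its only peak annotated to the 5′UTR, at 4.68 over 1246 nt. VIRMA, the largest subunit, had 4 peaks of 2.97 to 3.99. ZC3H13, the zinc finger subunit, stood above all other writers. It was at 12.2, 10.8 and 12.8 FPKM, and its exonic peak reached 19.8 over 1854 nt at chr12:16035766-16055518. RBM15 and RBM15B, which bring the complex to RNA, had 5.02 and 4.50, CBLL1 had 3.82 and METTL16, which methylates U6 RNA, had 4.38. PCIF1, the cap methyltransferase, had 3 peaks of up to 6.07. METTL5 and ZCCHC4, the writers of rRNA, had none.

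The erasers differed. FTO, at 28.5, 26.3 and 25.7 FPKM, had 4 peaks of 1.48 to 3.48. ALKBH5 had none at a nearly equal 27.8, 28.0 and 27.7 FPKM. Of the readers 8 of 10 had a peak, or 80.0% (49.0 to 94.3%), an interval that held the 70.9% of all genes. Of their 15 peaks 60.0% were annotated to the 5′UTR, against 16.8% of the peaks in all genes of at least 0.5 FPKM. YTHDF1 held 2 of these 5′UTR peaks, YTHDF2 3 and YTHDF3 2, and a peak over several exons carries only 1 class. The highest fold enrichment of the readers was in YTHDF1, at 15.2 over 419 nt, on a multiple of 1.0889, while its second peak, over 1492 nt, had 2.69. YTHDF2 had 3 peaks, all annotated to the 5′UTR. The longest, 1850 nt, had 3.59, and the 2 shorter ones both had 6.53, the value of 6 steps, of which that of 90 nt missed 0.05 with a log10 false discovery rate of -0.711. YTHDF3 had 4.15 over 1828 nt in 4 blocks annotated to the 5′UTR and 5.44, a value of 5 steps, over 181 nt annotated to the 3′UTR. YTHDC1, the nuclear reader, had 8.80 over 1349 nt in 8 blocks annotated to the 5′UTR at 29.9, 27.4 and 29.5 FPKM. HNRNPA2B1 had 4.50 and 1.2, HNRNPC 2.33, IGF2BP3 3.40 and IGF2BP1 1.47. YTHDC2 had no entry, and neither did IGF2BP2, which at 33.8, 33.9 and 31.4 FPKM was above every YTHDF gene.

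Of the myogenic regulators, 20 of 24 genes of at least 0.5 FPKM had a peak, or 83.3%. The interval of 64.1 to 93.3% held the 70.9% of all such genes. With no filter on FPKM it lay above the 57.0% of all genes. MYOG, which drives terminal differentiation, had the most abundant RNA of the list, at 193, 190.4 and 207 FPKM, and with 13.5 also the highest fold enrichment. Its peak was short, 208 nt at chr16:797547-797754, annotated to the 3′UTR, and 13.5 is not a multiple of 1.0889. MYOD1, as given above, had 3.12 at 57.8, 61.2 and 65.7 FPKM. MYF5, the other early determination factor, had no peak at 12.6, 11.97 and 10.7 FPKM, and neither had MYF6, PAX7 and TCF4. The ID genes, whose products hold bHLH factors off DNA, had low values of 1.96, 1.73 and 1.86 in ID1, ID2 and ID3. Their E-protein partners TCF3 and TCF12 had 3.42 and 1.92. EYA2 had 7.07, EYA4 5.02, EYA1 2.54 and SIX4 5.87. The MEF2 genes had 4.01 in MEF2A, 6.26 in MEF2B, 2.66 in MEF2C and 3.26 in MEF2D. MEF2B was at a mean of only 0.527 FPKM, close to the level filter, and its peak covered 89 nt. PITX3 had 9.8. PAX3, at 0.431 FPKM below the level filter, had 12 over 180 nt, and PITX3 and PAX3 were both on multiples of 1.0889.

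**Figure D4:**
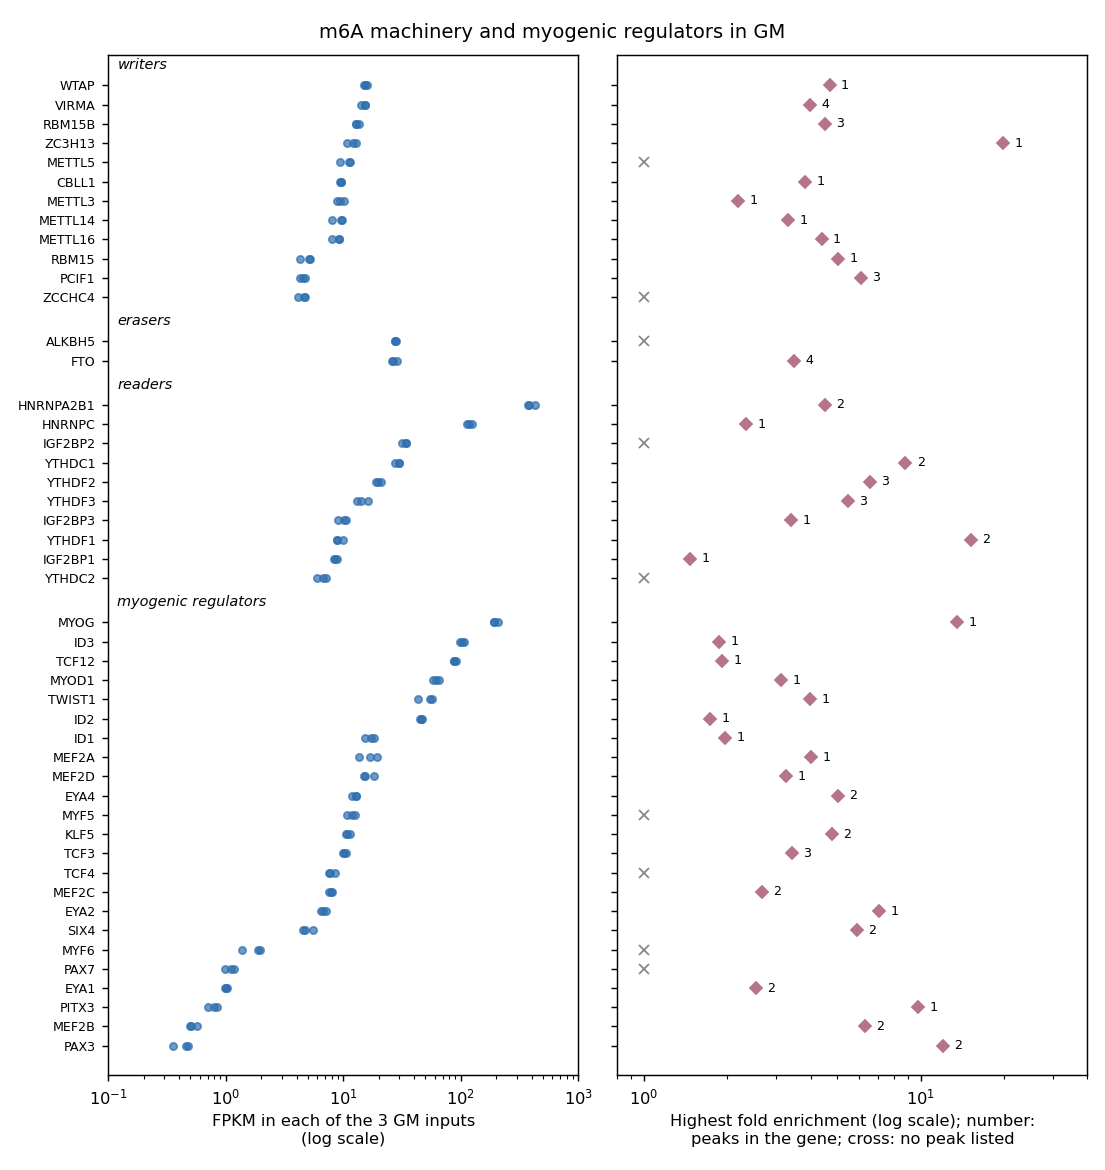
For writers, erasers and readers of m6A and for the myogenic regulators reported by name, the left panel gives FPKM in each of the 3 GM inputs (log scale) and the right panel the highest fold enrichment (log scale) with the number of peaks, or a cross where no peak is listed. ZC3H13 at 19.8 and MYOG at 13.5 stand to the right of most of their groups, and ALKBH5, IGF2BP2 and MYF5 have no peak.

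Regulatory gene families carried peaks at high rates, to be read beside the 70.9% of all genes. Of the 30 lists described here, the 95% interval lay above 70.9% in 9, below it in 3 and held it in 18, and these intervals are no tests. The 9 above were the immediate early, KLF, FOX, HOX, ZBTB and ZNF genes, the histone methyltransferases and demethylases, the chromatin remodellers and the collagens. The 3 below were the cytosolic ribosomal proteins, the respiratory chain and the histones. Under every alternative choice of peaks, inputs and FPKM filter 7 stayed above and 1, the cytosolic ribosomal proteins, stayed below. The collagens, whose interval began at 71.1%, held the background with a false discovery rate under 0.05 (85.7%, 65.4 to 95.02%) and under 4 other settings, the HOX genes without the multiples and the respiratory chain with no filter on FPKM. The histones, with 8 genes, held it at a fold enrichment of at least 2 and without input 3, where they were at 42.9% (15.8 to 74.95%). The interval of the SOX genes (70.1 to 100%) held the background in the full list and lay above it under every alternative choice of peaks. Every member of at least 0.5 FPKM had a peak in the ZBTB genes (35), the SOX genes (9), the KLF genes (12), the FOX genes (17), the histone methyltransferases and demethylases (35) and the immediate early genes (18). HOX genes had one in 25 of 26, HOXD4 being the exception, chromatin remodellers in 25 of 27, without SMARCD1 among others, and ZNF zinc finger genes in 202 of 230, or 87.8%, at a median level of 3.32 FPKM. The immediate early genes had the highest median of the best peak, 5.93, against 4.00 over all genes. JUN, of the AP-1 factor, had 14.0 over 1170 nt annotated to its 3′UTR at 37.0, 32.6 and 35.4 FPKM. NR4A1 had 9.8 and ZFP36 12. Among the chromatin enzymes EHMT2, an H3K9 methyltransferase, had 39.2, KMT2B 11.2 and KMT2D, an H3K4 methyltransferase, 9.57 over 3177 nt of exon. CHD3, of the NuRD complex, had 11.1, SMARCD2 10.7 and CHD8 8.54.

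The highest values of the other families were FOXS1 at 44.6, FOXO6 at 8.44 and FOXP4 at 7.64, HOXA7 at 20.7, HOXA4 at 10.9 and HOXA9 at 8.28, and SOX9 at 13.1, SOX4 at 9.26 and SOX11 at 8.02. KLF16 had 9.44, KLF11 7.08 and KLF4, one of the pluripotency factors, 6.99. ZBTB10 and ZBTB48 had 22.9 each and ZBTB45 14.2, while ZNF526 had 35.9 and ZNF692 23.2 beside ZNF784. The most abundant ZNF gene without a peak was ZNF207, at 79.2, 75.4 and 75.1 FPKM. Of these, FOXS1, HOXA7, HOXA4, SOX9, the 3 ZBTB genes, ZNF526, EHMT2, NR4A1 and ZFP36 lay on multiples of 1.0889, and the peak of HOXA4 also shared bases with HOXA3.

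Signalling lists had shares above the background, with intervals that held it in the full list. The interval of the Wnt list lay above it under 4 alternatives. That of IGF and insulin signalling lay above it without the multiples and with no filter on FPKM. That of TGF-beta and BMP signalling lay above it with no filter on FPKM. IGF and insulin signalling had a peak in 25 of 29 genes, 86.2%, Notch signalling in 13 of 15, Wnt signalling in 29 of 34, 85.3%, and TGF-beta and BMP signalling in 26 of 32. IRS2, an adaptor of the insulin receptor, had 8.81 over 2840 nt of exon, and FOXO1, which insulin signalling holds out of the nucleus, had 6.64. MTOR had 8.71, but its log10 false discovery rate was -1.14, so it missed 0.05, and the entry shared bases with ANGPTL7. In the Wnt list GSK3A had 10.5 and DVL1 9.98, FZD5 had 8.71, and CTNNB1, the beta-catenin gene, had no peak at 84.4, 90.0 and 87.1 FPKM. In the Notch list NOTCH3 had 6.81, NUMBL 6.23 and the ligand gene JAG1 5.09. RFNG, IGFBP7 and INHBA were the most abundant genes without a peak in the Notch, IGF and TGF-beta lists. TGFBR2 had 8.71 with a log10 false discovery rate of -1.14, BMPR1B had 7.62 and TGFB3 had 6.81. MTOR, FZD5, TGFBR2 and BMPR1B lay on multiples of the step.

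Among structural genes, collagens had a peak in 19 of 21, or 90.5%, with COL18A1 at 12.2, COL16A1 at 9.96 and COL27A1 at 9.8. COL27A1 had 10 peaks at a mean of 0.964 FPKM, and its 9.8 is a value of 9 steps, while its other peaks reached 5.62 at most. Sarcomere genes had one in 28 of 35, or 80.0% (64.1 to 90.0%), an interval that held the background in the full list. LDB3, a Z-disc gene, had 21.8, MYH8, the perinatal myosin heavy chain gene, 15.2 and MYOM2, of the M-band, 11.5, of which the first and second were on multiples of 1.0889 and the entry of MYH8 shared bases with another gene. MYLPF, a fast myosin light chain gene, had none at 496.5, 494 and 539.9 FPKM. Integrins had one in 10 of 17, or 58.8%, with an interval of 36.0 to 78.4% that held the background, and with no filter on FPKM they lay above it. ITGA5, the fibronectin receptor chain, had 8.27 at 288, 296 and 271 FPKM, ITGA9 had 27.2, on a multiple, and ITGA3 5.33, while ITGAV had none.

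Of the housekeeping lists, the cytosolic ribosomal proteins and the respiratory chain had intervals below the background, while those of glycolysis and the proteasome held it. Cytosolic ribosomal protein genes had a peak in 25 of 78, or 32.1% (22.7 to 43.0%), at a median level of 742 FPKM, against the 64.5% of other genes of 200 FPKM or more, and the median of their best peak was 2.32. RPSA at 6.53, RPS2 at 6.1 and RPL7L1 at 4.52 were the highest of the list, and the entry of RPS2 shared exon bases with another entry. RPL7L1, an RPL7-like gene counted here, was at only 35.5, 35.5 and 36.6 FPKM, and its place in the list was not checked. Respiratory chain genes had one in 40 of 80, 50.0%, and only 37 of these genes kept one with a false discovery rate under 0.05. ATP5PD, whose 7.62 was the highest of the chain with that of COX7A1, was among those that missed it, while NDUFV1 had 6.53 and UQCRB no peak at 305 to 369 FPKM. Glycolysis genes had one in 10 of 18, or 55.6% (33.7 to 75.4%). TPI1 and HK1, with 6.53 and 7.62, missed 0.05 for these entries, TPI1 and ENO2, also 6.53, shared bases with SPSB2 and LRRC23, and GAPDH had no peak. Proteasome subunits had one in 21 of 36, or 58.3% (42.2 to 72.9%), led by PSMD3 at 7.84, PSMB7 at 4.67 and PSMC5 at 4.62, and PSMA7 had none.

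Cell cycle genes had a peak in 32 of 54, or 59.3%, with an interval of 46.0 to 71.3% that held the background. With no filter on FPKM the same 59.3% lay above the 57.0% of all genes, while the interval lay below the background with a false discovery rate under 0.001, at a fold enrichment of at least 2 and with a mean of at least 2 FPKM. CDK1, the mitotic kinase, had 19.6 over 656 nt, MKI67 10.2 and CDC6, of the replication origin, 9.8, the first and the last on multiples of 1.0889. CDKN1C, an inhibitor of the cycle at 88.2, 101.8 and 90.7 FPKM, had none. Mitochondrial ribosomal proteins had a peak in 47 of 76 genes, 61.8% (50.6 to 71.9%), an interval that held the background. It lay below the background at a fold enrichment of at least 2 and with a mean of at least 2 FPKM. Of these genes MRPL46 had 12, MRPS12 7.60 and MRPS26 7.35, and MRPL33 had no peak. Chaperones had one in 17 of 25, 68.0%, with HSPB6 at 9.20, the endoplasmic reticulum chaperone HSPA5 at 7.17 for a level of 1133, 1099 and 1057 FPKM, and DNAJB1 at 5.76, while HSPA9 had none. Translation factors had one in 42 of 61, 68.9%, with EIF2B2 at 13.6, EIF2A at 13.1 and EIF3J at 10.5, and EIF4A1 had none. Sterol synthesis genes had one in 16 of 22, 72.7%, near the background, with DHCR7 at 10.1, TM7SF2 at 9.07, FDFT1 at 4.96 and SC5D without one. Of 8 histone genes 3 had an entry, HIST1H2BB at 7.62, HIST1H1E at 5.44 and HIST1H2AC at 2.77, and HIST1H2BB, whose entry covered 3 other genes, missed 0.05. HIST1H2BD had none. The libraries were made from poly(A) RNA, and most histone mRNAs of dividing cells are known to lack a poly(A) tail. On multiples of the step lay RPSA, ATP5PD, COX7A1, NDUFV1, TPI1, HK1, ENO2, MRPL46, EIF2A, HIST1H2BB and HIST1H1E.

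**Figure D5:**
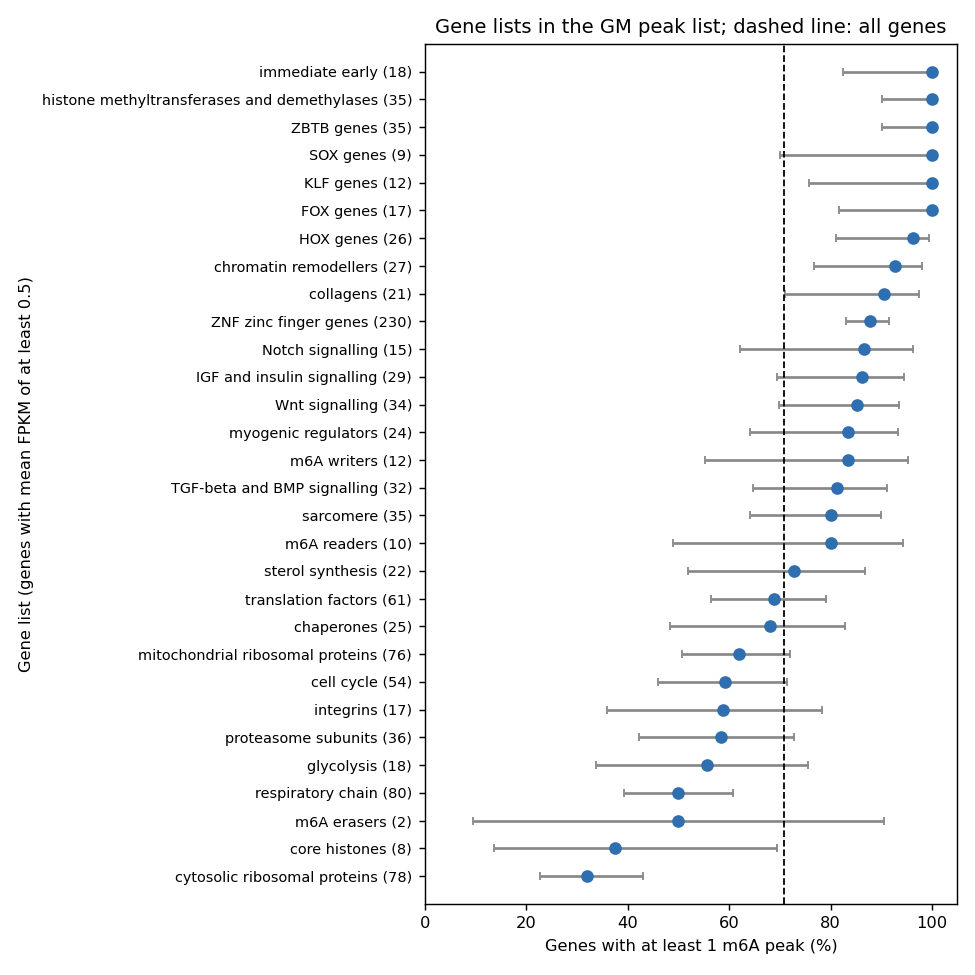
Points give the percentage of genes of at least 0.5 FPKM with an m6A peak in GM (x axis) in 30 gene lists (y axis, number of genes in brackets), with Wilson 95% intervals, and the dashed line marks all genes at 70.9%. Cytosolic ribosomal proteins lie lowest at 32.1%, and 6 lists lie at 100%.

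The GO and KEGG columns of the expression table gave shares for groups whose members were not set by hand. The highest and lowest terms of at least 50 genes were taken by rule. The other terms named, some of them smaller, were picked by hand. Of 4432 genes with a KEGG entry and at least 0.5 FPKM, 72.6% had a peak. Among 141 pathways of at least 50 such genes the lowest shares were in Ribosome at 42.5% of 127 genes, Oxidative phosphorylation at 45.3% of 106, Parkinson disease at 50.0% of 110, Huntington disease at 55.9% of 152 and Non-alcoholic fatty liver disease at 56.5% of 124. The disease maps share respiratory chain genes with Oxidative phosphorylation. The highest were NF-kappa B signaling at 89.5% of 57, Inositol phosphate metabolism at 87.0% of 54, Melanogenesis at 86.6% of 67, Neurotrophin signaling at 86.3% of 95 and Rap1 signaling at 85.8% of 134. The tricarboxylic acid cycle, with 26 genes, was at 38.5%, Cell cycle at 64.0% of 114, MAPK signaling at 84.3% of 198 and Notch signaling at 86.8% of 38.

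Of 11033 genes with a GO entry, 74.1% had a peak, and 365 terms had at least 50 such genes. The lowest was the cytosolic small ribosomal subunit at 28.0% of 50 genes, and translation, with 291 genes, was at 47.4%. The highest were neuron migration at 93.5% of 62, negative regulation of canonical Wnt signaling at 92.6% of 81 and anterior/posterior pattern specification at 92.1% of 63. Genes with DNA-binding transcription factor activity had a peak in 405 of 450, or 90.0%. Of the muscle terms, sarcomere organization was at 82.1% of 28 genes, the Z disc at 82.0% of 61 and muscle contraction at 79.3% of 29, while the KEGG pathway Cardiac muscle contraction was at 61.4% of 44, below the KEGG background. Extracellular matrix was at 84.5% of 103.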

How the data were processed

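The authors trimmed reads with Trimmomatic, aligned them with HISAT2 to the bovine genome ARS-UCD1.2, kept unique non-duplicate alignments with Sambamba and made FPKM values per gene with StringTie, which are deposited per input library. The submitters' processing notes also name cutadapt, fastp and HOMER. Peaks were called by the authors with exomePeak as 1 list of GM IP against GM input, how the 3 libraries of each were combined not being given in the sources used here, and annotated with ChIPseeker. The deposited list gives for each peak a fold enrichment ratio of IP over input and log10 values of the p-value and false discovery rate, but no read counts and no strand, so the depth behind a peak is unknown. Strand-specific libraries were used, yet entries over more than 1 gene (1341 peaks, 6.79%) are given to the authors' gene only. Entries sharing at least 1 exon base with another entry numbered 636, or 3.22%.

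Peaks were joined to genes by identifier, 100 peak genes with 113 peaks lying outside the gene table, which covers the 29 autosomes. Exon span is the sum of a peak's blocks. All results on peaks are descriptions without tests, since 1 list per condition has no replicates. Intervals are Wilson 95% intervals and cover counting error only. Lists were read over genes whose inputs averaged 0.5 FPKM or more. The members and gene lists were chosen with earlier results of these data known. Genes named are the 15 with the highest fold enrichment (false discovery rate under 0.05, mean of at least 1 FPKM), the 10 with most peaks, the 15 most abundant without and 10 with a peak, the 5 longest peaks, the m6A and myogenic genes, the 4 genes with primers, and per list the 3 highest and the most abundant one without a peak. Some genes under this rule are not reported here by name, but stay in the counts. Python 3 scripts with pandas were checked on simulated tables. Where a log10 false discovery rate was listed as minus infinity none is printed.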

Additional observations from a re-analysis of the deposited data

How the results depend on the processing

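Values moved with the choice of peaks and with the filter on FPKM. The share of all genes with a peak was 57.0% in the full list, 53.7% with only peaks of a false discovery rate under 0.05, 47.9% under 0.001, 51.4% with a fold enrichment of at least 2, 49.3% without peaks at whole multiples of 1.0889 and 56.2% without entries sharing exon bases. The last pair of settings was added after seeing the data. Under 0.5 FPKM the share was 21.8%, 12.02% and 12.9% with false discovery rates under 0.05 and 0.001 and without the multiples. From 0.5 to 2 FPKM it was 60.8%, 51.6%, 60.3% and 56.5% with the rates under 0.05 and 0.001, at a fold enrichment of at least 2 and without the multiples. From 2 to 10 FPKM it was 69.8%, 68.4% and 71.7%, and from 10 to 50 FPKM 70.2%, 62.3% and 70.4%, under 0.001, at 2-fold and without the multiples. At 2-fold it was 50.4% from 50 to 200 FPKM and 41.7% above. Exonic peaks made up 40.2%, 36.5% and 36.9% and 3′UTR peaks 44.2%, 47.3% and 46.3% under 0.05, under 0.001 and at 2-fold. Without shared entries exonic peaks were 42.3%, just above the 42.1% of 3′UTR peaks, so the order of these classes turned, and 5′UTR peaks were 16.9% at 2-fold, 15.4% without the multiples and 15.6% without shared entries.

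The median fold enrichment was 3.25 under 0.05, 4.04 at 2-fold and 2.85 without the multiples. The correlation of fold enrichment with input level was -0.24 under 0.001, -0.17 at 2-fold, -0.14 without the multiples, -0.19 for the mean fold enrichment with Pearson's r and -0.38 with no filter on FPKM. The share of genes with 1 peak was 54.5%, 61.3%, 61.5%, 55.4% and 53.4% under 0.05, under 0.001, at 2-fold, without the multiples and without shared entries. The median span was 360.0 nt, 447 nt and 445 nt under 0.05, under 0.001 and at 2-fold, and 614 nt with introns included. Of 30 gene lists 19 lay above all genes, and 18 to 24 did under the alternatives. Chaperones and sterol synthesis changed side under 0.001, sterol synthesis at 2-fold, chaperones without the multiples, and cell cycle, chaperones, integrins, mitochondrial ribosomal proteins and translation factors with no filter on FPKM, where the share over all genes is 57.0%. The cause of these moves was not tested.

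Leaving out 1 input at a time gave 63.3 to 63.7% from 0.5 to 2 FPKM and a correlation of -0.22 to -0.21, and 19 lists above all genes each time. The peak list stayed the same and only the FPKM means changed, so these settings do not probe the peak calls. No paired analysis was possible because no result comes from a test and GM is the only condition described. Assigning peaks by a peak name column was not run, since the list used here holds no such column.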
